A study of Mus musculus with 59 samples.

Results

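Immediate early genes respond first when a cell is stimulated. Expression of 10 of them, *Fos*, *Fosb*, *Jun*, *Junb*, *Egr1*, *Egr2*, *Egr3*, *Ier2*, *Ier3* and *Atf3*, was examined among the 24391 genes that RNA-seq of mouse embryonic stem cells (ESCs) and embryoid bodies (EBs) lists by symbol. The members were selected on their levels in control EBs and control ESCs of the *Pcgf1* line, so that comparison is given below as a description with no test. All 10 were found in all 59 libraries and passed the filter used for testing, which drops genes listed at 0 throughout a line. TPM is a transcript's abundance per length, scaled to a sum of 1000000 in each library.

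The RNA of an immediate early gene appears within minutes of a stimulus and without new protein synthesis. Growth factors act on them largely through ERK kinases and the serum response factor, while cAMP and stress signals act through CREB and ATF proteins, and their RNAs decay quickly. The FOS and JUN proteins pair into the transcription factor AP-1, and the EGR proteins are zinc finger transcription factors. In cultured cells these RNAs also rise when cells are detached, dissociated or otherwise handled.

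ESCs can form every tissue of the embryo and were grown with LIF and inhibitors of FGFR (SU5402), MEK (PD184352) and GSK3 (CHIR99021) on mouse embryonic fibroblast (MEF) feeders. EBs are the aggregates they form in 2 days of suspension culture without LIF and these inhibitors. All lines carry ERT2-Cre, a recombinase that 4-OHT activates. The *Pcgf1* line had 4 ESC and 5 EB libraries of untreated *Pcgf1* f/f cells (control), and 5 of each stage after 4-OHT, when the cells are *Pcgf1* delta/delta (*Pcgf1*-KO). PCGF1 is a subunit of the Polycomb complex PRC1, whose catalytic subunits are RING1A and RING1B. The *Ring1* pm line had 2 libraries in each of 4 groups. All of its cells are *Ring1a* pm/pm, a point mutation. *Ring1b* is cpm/cpm, a conditional point mutant, without 4-OHT and is labelled pm/pm after it. The *Ring1A/B* (*Ring1a* -/- in every cell, *Ring1b* f/f or delta/delta), *Pcgf2/4*, *Pcgf3/5* and *Pcgf6* lines (floxed alleles, or delta/delta after 4-OHT) had 2 libraries per group as well.

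The libraries matched their labels in the *Pcgf1* line, where *Pcgf1* itself ranged from 10.7 to 13.6 TPM (ESCs) and 7.30 to 16.6 TPM (EBs) without 4-OHT, and from 0.627 to 2.77 TPM (ESCs) and 0.978 to 2.47 TPM (EBs) after it. A point mutation need not alter the level of its RNA, so *Ring1* and *Rnf2* (the gene of RING1B) check nothing in the *Ring1* pm line. In 21 of the 32 libraries of the other 4 lines, file name and label give different conditions. These lines are therefore described library by library under their labels, with no test. Replicates 1, 2 and 3, and 4 and 5 of the *Pcgf1* line belong to 3 library series. Libraries of 1 series lay close together, with a median difference between genes of 0.0623 to 0.0928 (log2) for replicates 4 and 5, 0.140 to 0.210 for replicates 2 and 3, and 0.254 to 0.713 between series. The labels do not say whether replicates are separate cultures, so *p*-values measure the spread between these libraries, which may be technical. How the cells were collected before RNA extraction is not given in the sources used here.

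The stretches upstream of *Fos* and *Fosb*, the members that differed most between ESCs and EBs, and of *Ier3*, whose EB libraries overlapped those of ESCs, are shown for the letters of signal-responsive elements in them. Each spans 300 bases, from 350 to 51 bases before the outermost annotated protein-coding start (Gencode M1 on the mm9 genome, strand of the gene), at chr12:86814490-86814789 (+) for *Fos*, chr7:19895445-19895744 (-) for *Fosb* and chr17:35958279-35958578 (+) for *Ier3*. Capitals mark the CArG box, to which serum response factor binds, and the CRE core TGACG on either strand, to which CREB and ATF proteins bind.
Fos: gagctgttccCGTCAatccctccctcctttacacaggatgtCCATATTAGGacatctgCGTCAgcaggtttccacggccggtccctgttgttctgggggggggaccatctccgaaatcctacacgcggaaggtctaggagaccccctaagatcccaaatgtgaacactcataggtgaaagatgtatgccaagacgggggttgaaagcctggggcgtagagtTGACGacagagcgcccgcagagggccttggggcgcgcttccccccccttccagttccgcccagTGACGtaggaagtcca
Fosb: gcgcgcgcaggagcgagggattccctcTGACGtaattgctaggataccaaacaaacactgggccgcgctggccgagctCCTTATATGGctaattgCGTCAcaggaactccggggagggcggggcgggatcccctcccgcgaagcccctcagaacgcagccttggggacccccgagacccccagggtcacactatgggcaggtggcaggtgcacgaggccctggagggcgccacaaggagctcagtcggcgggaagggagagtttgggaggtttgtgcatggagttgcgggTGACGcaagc
Ier3: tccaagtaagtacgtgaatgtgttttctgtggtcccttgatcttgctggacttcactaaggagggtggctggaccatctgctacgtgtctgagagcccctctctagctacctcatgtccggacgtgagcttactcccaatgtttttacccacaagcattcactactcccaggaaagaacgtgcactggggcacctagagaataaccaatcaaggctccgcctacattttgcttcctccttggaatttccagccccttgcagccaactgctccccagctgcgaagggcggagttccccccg

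A CArG box was found in 1.69% of 22234 such windows of protein-coding genes and in 2 of the 7 members searched, 309 to 300 bases before the start of *Fos* and 272 to 263 bases before that of *Fosb*. The CRE core TGACG, which is also part of full CRE and some AP-1 sites, was found in 17.9% of windows and in 4 of the 7 members, with 4 matches in *Fos*, 3 in *Fosb*, 2 in *Jun* and 1 in *Junb*. The AP-1 letters TGANTCA (7.22% of windows) and the EGR letters GCGNGGGCG (4.64%) matched none of the 7 windows. *Egr2*, *Ier3* and *Atf3* held none of these letters. All were searched on both strands, and a match is a description of the sequence. *Egr1*, *Egr3* and *Ier2* were not searched.

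In control cells of the *Pcgf1* line, 9 of the 10 genes were lower in every EB library than in every ESC library, which was so for 11.5% of the 20594 genes tested. The reverse, every EB library above every ESC library, was so for 10.1% of genes and for none of the 10. The median log2 difference of the 10 genes was -3.84, that of all genes was -0.0045, and a log2 difference here is one of log2(TPM + 0.1), which understates the change of low genes. These values are the ones the genes were chosen by.

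The AP-1 subunits spanned the widest range. *Fos* was at 460.4, 366.5, 414 and 803 TPM in control ESCs 1 to 4 and at 1.65, 0.831, 0.542, 3.41 and 2.91 TPM in control EBs 1 to 5. *Fosb*, a close relative of *Fos*, was at 79.99, 120.1, 122 and 205 TPM in these ESCs and at 0.0763, 0.307, 0.150, 0.0630 and 0.161 TPM in these EBs. Both were abundant in every ESC library and near 0 in every EB library, with a log2 difference of -8.23 for *Fos* and -9.03 for *Fosb*. *Jun*, the partner of FOS in AP-1, was at 58.4, 106, 99.4 and 38.2 TPM in control ESCs and at 4.07, 11.1, 12.6, 4.26 and 3.44 TPM in control EBs (log2 difference -3.49). *Junb*, a JUN family member, was at 52.4, 125.5, 115 and 151 TPM in control ESCs and at 3.76, 11.3, 8.94, 6.08 and 5.46 TPM in control EBs (log2 difference -3.94). The *Jun* and *Junb* RNAs thus remained measurable in EBs where *Fosb* was at 0.307 TPM or less, and the lowest ESC library of each was above its highest EB library.

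*Egr1* was at 301, 436.5, 462 and 483 TPM in control ESCs and at 3.75, 8.87, 9.23, 7.90 and 6.84 TPM in control EBs (log2 difference -5.87). *Egr2*, from 8.59 to 15.6 TPM in control ESCs, was at 0.0972 to 0.391 TPM in control EBs (log2 difference -5.05). *Egr3* was low throughout, with 0.742 to 1.24 TPM before and 0 to 0.145 TPM after EB formation (log2 difference -2.73). The 3 EGR genes thus kept the same order of level, *Egr1* far above *Egr2* and *Egr2* above *Egr3*, in every ESC library of the line. *Atf3*, a stress-induced factor of the ATF family, was at 24.9, 21.1, 13.5 and 26.0 TPM in control ESCs and at 2.48, 1.76, 2.01, 0.722 and 1.00 TPM in control EBs (log2 difference -3.74). None of the EGR or *Atf3* values overlapped between stages.

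The other 2 genes differed less. *Ier2*, a nuclear protein of the early response, was at 175.5, 239, 227.5 and 290 TPM in control ESCs and at 77.3, 138, 117, 117 and 131 TPM in control EBs (log2 difference -1.01). *Ier3*, a short-lived protein linked to ERK signalling and cell survival, was at 22.8, 23.4, 14.1 and 19.7 TPM in control ESCs and at 6.61, 5.32, 1.04, 38.0 and 31.1 TPM in control EBs. Its replicates 4 and 5 were above all control ESCs and its replicates 1 to 3 were below them, and these replicates belong to separate library series. Its log2 difference of -1.18 hence stood beside an SD of 2.07 (log2, n = 5) among control EBs, where the median gene of at least 1 TPM had 0.409.

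**Figure D1:**
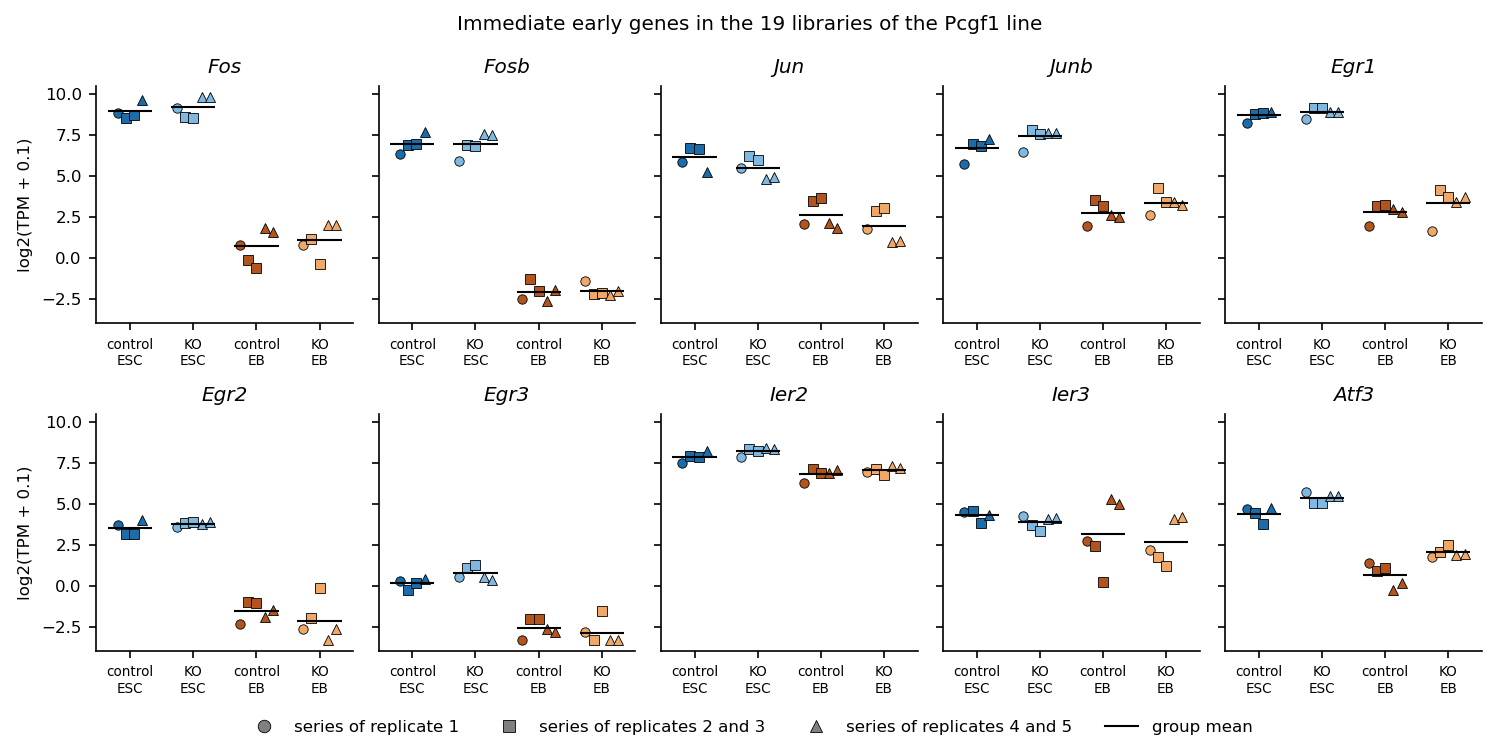
Level of each immediate early gene as log2(TPM + 0.1) in the 19 libraries of the *Pcgf1* line, by group; symbols mark the library series and bars the group means. *Fos* and *Fosb* lie furthest apart between ESCs and EBs, *Ier2* and *Ier3* the least, and EB replicates 4 and 5 of *Ier3* lie above the ESCs in controls (38.0 and 31.1 TPM) and at their level in *Pcgf1*-KO cells (16.7 and 18.1 TPM).

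The same comparison in *Pcgf1*-KO cells uses libraries that did not choose the genes, though they belong to the same 3 library series as the controls. Of the 10 genes, 9 fell in *Pcgf1*-KO EBs against *Pcgf1*-KO ESCs (limma, adjusted *p* under 0.05), beside 10.2% of all 20594 genes that were lower and 8.13% that were higher. Every *Pcgf1*-KO EB library was below every *Pcgf1*-KO ESC library for these 9 genes. The median log2 difference of the 10 genes was -3.83, and that of all genes was 0.

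*Fos* was at 564.5, 388, 375, 906 and 887 TPM in *Pcgf1*-KO ESCs and at 1.63, 2.13, 0.682, 3.84 and 3.87 TPM in *Pcgf1*-KO EBs, a 269-fold lower level on this scale (log2 -8.07, standard error 0.49, adjusted *p* = 4.74e-09). *Fosb* was at 60.9, 117, 114, 189 and 178 TPM in these ESCs and at 0.104 to 0.272 TPM in these EBs, 496-fold lower (log2 -8.95, standard error 0.34, adjusted *p* = 1.23e-11). *Egr1* was at 351, 573, 562, 483 and 486 TPM in these ESCs and at 3.01, 17.5, 12.9, 10.4 and 13.2 TPM in these EBs, 48.5-fold lower (log2 -5.60, standard error 0.36, adjusted *p* = 8.83e-09). For each of these genes the lowest ESC library held more than the highest EB library by a wide margin.

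*Egr2* fell by 5.92 on the log2 scale, *Junb* by 4.05, *Egr3* by 3.61, *Jun* by 3.53 and *Atf3* by 3.31, each with an adjusted *p* at or under 3.62e-05. *Egr3* was listed at 0 in 3 of 5 *Pcgf1*-KO EBs, so its fitted fold change depends on the pseudocount. *Ier2* fell 2.23-fold (log2 -1.16, standard error 0.17, adjusted *p* = 9.04e-05), from 227 to 335 TPM in *Pcgf1*-KO ESCs to 108 to 159 TPM in *Pcgf1*-KO EBs. *Ier3* did not pass the test (log2 -1.21, standard error 0.76, adjusted *p* = 0.323). It was at 18.96, 12.7, 10.1, 16.6 and 17.02 TPM in *Pcgf1*-KO ESCs and at 4.39, 3.26, 2.18, 16.7 and 18.1 TPM in *Pcgf1*-KO EBs, where replicates 4 and 5 again lay apart from replicates 1 to 3.

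Over all *Pcgf1* line ESCs, the order of the median levels was *Egr1* (483 TPM), *Fos* (460.4), *Ier2* (290), *Junb* (151), *Fosb* (120.1), *Jun* (58.4), *Atf3* (32.2), *Ier3* (17.02), *Egr2* (13.4) and *Egr3* (1.24). Each pair of neighbours in this order overlapped over the 9 libraries, except *Fos* with *Ier2*, where the lowest *Fos* (366.5 TPM) was above the highest *Ier2* (335 TPM), and *Egr2* with *Egr3*. In the 10 EB libraries, *Ier2* led with a median of 127 TPM and overlapped no other member, followed by *Junb* (9.07 TPM), *Egr1* (9.05), *Ier3* (5.96), *Jun* (4.16), *Atf3* (2.88), *Fos* (1.89), *Egr2* (0.155), *Fosb* (0.136) and *Egr3* (0.0403), and each of these overlapped its neighbours. The summed level of the 10 genes ran from 1189 to 2032 TPM without and 1419 to 2212 TPM after 4-OHT in ESCs, and from 99.8 to 182 TPM without and 146 to 206 TPM after it in EBs.

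Within a stage, the members did not vary as 1 block. Over the 9 ESC libraries, Pearson's r between pairs of members ranged from -0.927 to 0.973 over 45 pairs, with a median of 0.258. Over the 10 EB libraries, for the 7 members with a mean of at least 1 TPM, it ranged from -0.869 to 0.866 over 21 pairs, with a median of 0.078. The log2 levels of these members were also averaged, each first centred and scaled to its own SD over the libraries. *Fbl* and *Spint1* (r = 0.98 each) followed this mean most closely in ESCs, among 10461 genes. *Gltscr1l* and *Jup* (r = 0.98 each) did so in EBs, among 10394. These r are descriptions over libraries of 3 series, which share their series.

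Signs of the stage and of feeder cells moved with the members. Of 8 naive ESC markers 6 fell in *Pcgf1*-KO EBs against ESCs, and all 6 early EB or epiblast markers rose. *Klf4*, a naive pluripotency factor, was at 655 to 1664 TPM in the 9 ESC libraries and 3.54 to 74.7 TPM in the 10 EB libraries. Of 12 MEF feeder markers 6 fell and none rose. Their summed level ranged over the ESC libraries from 227 to 305 TPM (control) and 187.5 to 253 TPM (*Pcgf1*-KO), and over the EB libraries from 36.0 to 71.5 TPM (control) and 18.3 to 39.8 TPM (*Pcgf1*-KO). Members of this list differed. The collagen genes *Col1a1* (95.4 to 218 TPM) and *Col1a2* (30.3 to 48.8 TPM) were high in these ESCs and at 9.26 TPM or less in every EB library. *Lum*, *Dcn* and *Twist2* were at 0.836 TPM or less in every ESC library. *Dcn* (1.37 to 8.16 TPM) and *Thy1* (16.4 to 26.7 TPM) were higher in every control EB than in every control ESC. These 6 genes were named after their values were seen. The part of feeder RNA in the members' levels was not tested. In bulk RNA, fewer cells that express a gene and less of its RNA per cell cannot be told apart.

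Other lists place the members in their pathway, each described by its calls in *Pcgf1*-KO EBs against ESCs and its median beside that of all genes (0). Of all genes 10.2% fell and 8.13% rose in this comparison, and a share of a list near these is not a result about the list, which holds for several of the counts that follow. Of 32 other immediate early genes 17 fell and 1 rose (median -1.28). *Cyr61* (log2 -5.83) and *Ctgf* (log2 -3.40), matricellular proteins of the CCN family, *Edn1* (log2 -5.80), the endothelin precursor, fell, and *Myc* (log2 2.74), a growth-promoting factor, rose. Of 12 transcription factors that bind their control elements, *Elk3* and *Jdp2* fell and *Creb1* rose (median -0.005). Of 17 FGF-ERK pathway genes 5 rose, among them *Fgfr2* (log2 2.39), and *Map2k1* fell by 0.53 on the log2 scale (median 0.10). Of 11 ERK feedback genes 3 rose, among them *Etv1* (log2 2.49), and *Spry2* fell by 1.39 (median 0.60).

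LIF acts through STAT3, and of 10 LIF-STAT3 genes 5 fell and 1 rose (median -1.12). *Socs3*, the feedback inhibitor of LIF signalling, went from 88.7 to 189 TPM in *Pcgf1*-KO ESCs to 2.01 to 8.43 TPM in *Pcgf1*-KO EBs (log2 -5.32), *Stat3* fell by 2.52, *Bcl3* fell by 2.47 and *Gbx2* rose (log2 1.88). Of 16 heat shock and stress genes 3 rose, among them *Gadd45a* (log2 0.98) and *Hmox1* (log2 0.87), and *Dnajb1* fell by 0.64 (median 0.28). Of 12 AP-1 target genes 3 fell, among them *Cd44* and *Timp1*, and *Mmp9* rose (median -0.41). *Dnajb1*, a heat shock co-chaperone, was at 44.5 to 74.9 TPM in *Pcgf1*-KO ESCs and 30.5 to 45.3 TPM in *Pcgf1*-KO EBs.

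*Pcgf1*-KO and control cells were then compared within each stage. Every *Pcgf1*-KO library had 4-OHT and no control did. Loss of the gene, the drug and the active recombinase therefore cannot be told apart, which also holds for the *Ring1* pm line. In ESCs none of the 10 genes passed the test (limma, lowest adjusted *p* = 0.221, 1 gene at an unadjusted *p* under 0.05), beside 0.32% of all genes higher and 0.32% lower. Their log2 differences ran from -0.65 to 0.95, with a median of 0.27 beside -0.0232 for all genes. *Atf3* was at 51.4, 33.2, 32.2, 43.2 and 44.0 TPM in *Pcgf1*-KO ESCs, above the 13.5 to 26.0 TPM of every control ESC (log2 0.95, standard error 0.30, adjusted *p* = 0.221). *Junb* was at 88.1, 226, 189, 198 and 199 TPM in *Pcgf1*-KO ESCs (log2 0.73, adjusted *p* = 0.63) and was higher than the same-numbered control in 4 of 4 pairs. With the replicate number as a block, *Junb* passed the test (log2 0.75, standard error 0.16, adjusted *p* = 0.017), and with the library series as a block both *Junb* (adjusted *p* = 0.0278) and *Atf3* (adjusted *p* = 0.045) did. Over all 20594 genes, 522 were higher and 572 lower with the replicate block, and 650 and 697 with the series block. *Egr3* (log2 0.59, adjusted *p* = 0.784) and *Ier2* (log2 0.38, adjusted *p* = 0.585) were higher, and *Jun* (log2 -0.65, adjusted *p* = 0.838) was lower, in 4 of 4 pairs, with overlapping groups. *Fosb* and *Ier3* were also lower in 4 of 4 pairs.

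In EBs, *Atf3* rose in *Pcgf1*-KO cells and no other member passed the test, beside 1.08% of all genes higher and 0.874% lower. The control EB libraries used here are among those the genes were chosen by. A choice of genes low in these libraries can favour higher values in *Pcgf1*-KO EBs. *Atf3* was at 3.29, 4.05, 5.54, 3.58 and 3.73 TPM in *Pcgf1*-KO EBs 1 to 5, above every control EB, a 2.61-fold higher level (log2 1.39, standard error 0.29, adjusted *p* = 0.0145). It was higher in 5 of 5 same-numbered pairs, and its level in *Pcgf1*-KO EBs stayed under the 13.5 TPM of the lowest control ESC. The call rested on the fit of all 4 groups: the adjusted *p* was 0.15 with only the groups compared and 0.392 with 1 mean per library series. It was also lost without replicates 2 (0.0854), 4 (0.12) or 5 (0.115).

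*Junb* was at 6.13, 18.9, 10.4, 10.3 and 9.21 TPM in *Pcgf1*-KO EBs (log2 0.63, adjusted *p* = 0.558), higher than its pair in 5 of 5. *Jun* was at 3.33, 7.26, 8.07, 1.85 and 1.97 TPM (log2 -0.69, adjusted *p* = 0.685), lower than its pair in 5 of 5. Groups overlapped for both. With the replicate number as a block, 3 members passed the test, *Atf3* (adjusted *p* = 0.00584) and *Junb* (adjusted *p* = 0.0166) upward and *Jun* (adjusted *p* = 0.00703) downward. With this block 994 of all 20594 genes were higher and 1149 were lower. *Junb* and *Jun*, both JUN family genes, thus lay on opposite sides of 0 in both stages. *Fos* (log2 0.42, adjusted *p* = 0.867) and *Egr1* (log2 0.49, adjusted *p* = 0.702) did not pass the test with or without the block, although *Egr1* did without replicate 1 (adjusted *p* = 0.0349).

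The difference between the 2 stages in the effect of 4-OHT was itself tested, and none of the 10 genes passed (limma, lowest adjusted *p* = 0.986, 0 genes at an unadjusted *p* under 0.05), beside 0.00486% of all genes. The largest value was 0.43 for *Atf3* (standard error 0.42) and the lowest was -0.88 for *Egr3* (standard error 0.54). The call of *Atf3* in EBs and its lack in ESCs are therefore not shown to differ. These comparisons share libraries with one another, as each group enters more than 1 of them. The comparisons of *Pcgf1*-KO with control cells and the test between stages also use control libraries that the genes were chosen by.

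**Figure D2:**
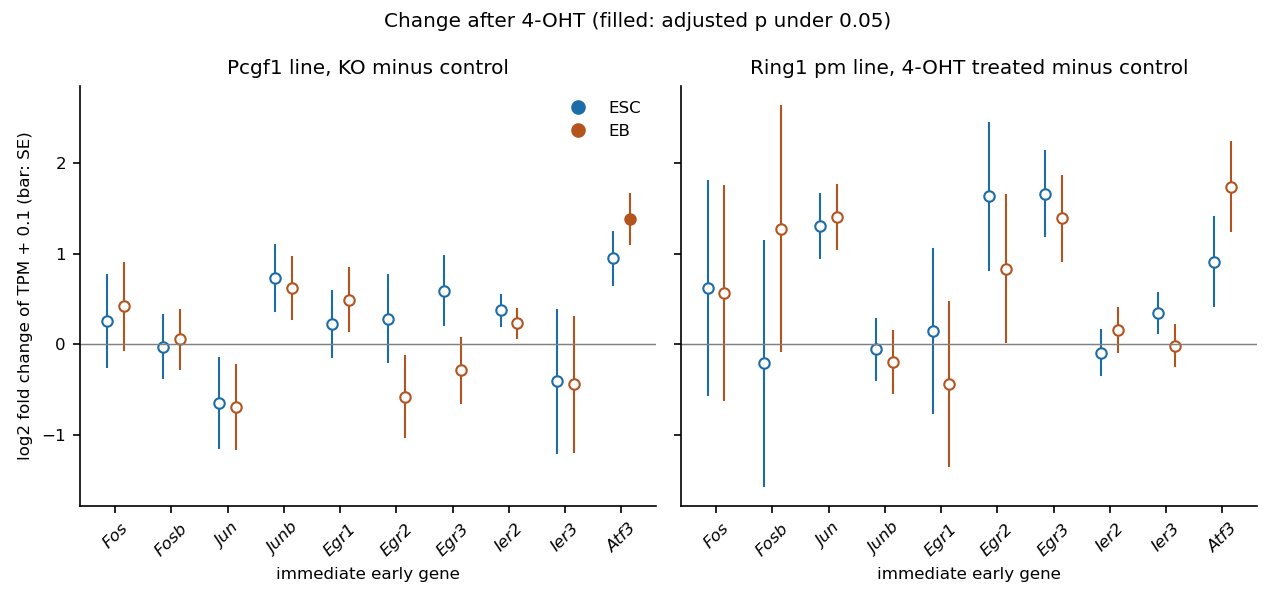
Log2 fold change of TPM + 0.1 after 4-OHT for each immediate early gene in the *Pcgf1* line (left) and the *Ring1* pm line (right), in ESCs and EBs; bars are standard errors from limma and filled symbols have an adjusted *p* under 0.05. Only *Atf3* in EBs of the *Pcgf1* line (log2 1.39) is filled, and the bars of *Fos* and *Fosb* in the *Ring1* pm line are the longest.

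Of the lists, heat shock and stress genes had 4 members of 16 that rose and none that fell in *Pcgf1*-KO EBs against control EBs (median 0.23 beside -0.028 for all genes). Of all genes 1.08% rose and 0.874% fell. Among the 4 were *Hspa1a* (log2 1.65, adjusted *p* = 0.0138), *Hspa1b* (log2 1.64) and *Hspb1* (log2 1.59). Over all genes, the calls of this comparison went from 402 to 68 with only the groups compared and to 4 with 1 mean per library series. Which list genes kept their call was not examined. Other immediate early genes held *Phlda1*, which rose from 3.39 to 11.0 TPM in control EBs to 14.2 to 45.7 TPM (log2 1.94, adjusted *p* = 0.00852), and *Ier5*, which fell by 1.21. *Gbx2* (log2 1.67) and *Bcl3* (log2 1.47) of the LIF-STAT3 list rose, as did *Mmp9* (log2 1.78) and *Plaur* (log2 1.27) of the AP-1 targets, where *Cd44* fell by 1.55. None of the regulators, FGF-ERK pathway genes or ERK feedback genes passed the test. *Gadd45a* rose in *Pcgf1*-KO ESCs (log2 0.89, adjusted *p* = 0.0211), the only gene of these 7 lists that passed there. In the same EBs 2 of 8 naive ESC markers and 3 of 5 primitive endoderm markers rose. Their part in the *Atf3* value was not tested.

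In the *Ring1* pm line, the ESC levels of *Fos* (3.56 to 47.2 TPM), *Fosb* and *Egr1* lay below those of every *Pcgf1* line ESC library. Line and library series coincide, so they cannot be told apart. Of the 10 genes, *Junb* fell and *Ier3* rose in control EBs against control ESCs, beside 2% of all 20279 genes lower and 2.73% higher. The median of the 10 genes was -1.05 and that of all genes was 0. *Junb* was at 41.2 and 43.4 TPM in control ESCs and at 10.15 and 9.40 TPM in control EBs (log2 -2.10, standard error 0.35, adjusted *p* = 0.0199). *Ier3* was at 10.8 and 15.5 TPM in control ESCs and at 34.3 and 42.5 TPM in control EBs (log2 1.55, standard error 0.235, adjusted *p* = 0.0149). Both calls were lost when any 1 of these 4 libraries was left out, at adjusted *p* of 0.136 to 0.174 for *Junb* and 0.0573 to 0.135 for *Ier3*.

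The same-group replicates of *Fos* stood far apart in ESCs of this line. *Fos* was at 3.56 and 47.2 TPM in control ESCs 1 and 2 and at 9.18 and 44.0 TPM in 4-OHT treated ESCs 1 and 2. Among genes averaging at least 1 TPM in the 2 libraries compared, only 0.722% differed as much between the control ESCs, and 0.917% did between the treated ones. *Fosb* (0.1755 and 2.82 TPM, then 0.119 and 2.64 TPM) and *Egr1* (19.8 and 91.1 TPM, then 23.7 and 92.7 TPM) followed the same pattern, and *Egr2* was also higher in both replicates 2. In these ESCs *Junb* (41.2 and 43.4 TPM, then 33.7 and 49.1 TPM) and *Ier2* differed less between replicates. *Klf4* was at 262 and 333 TPM in control ESCs 1 and 2 and at 298 and 334 TPM in the treated ones, and the feeder sum was at 50.6 and 49.4 TPM and at 101 and 86.6 TPM. Whether the collection of these cells moved with the gap was not tested.

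**Figure D3:**
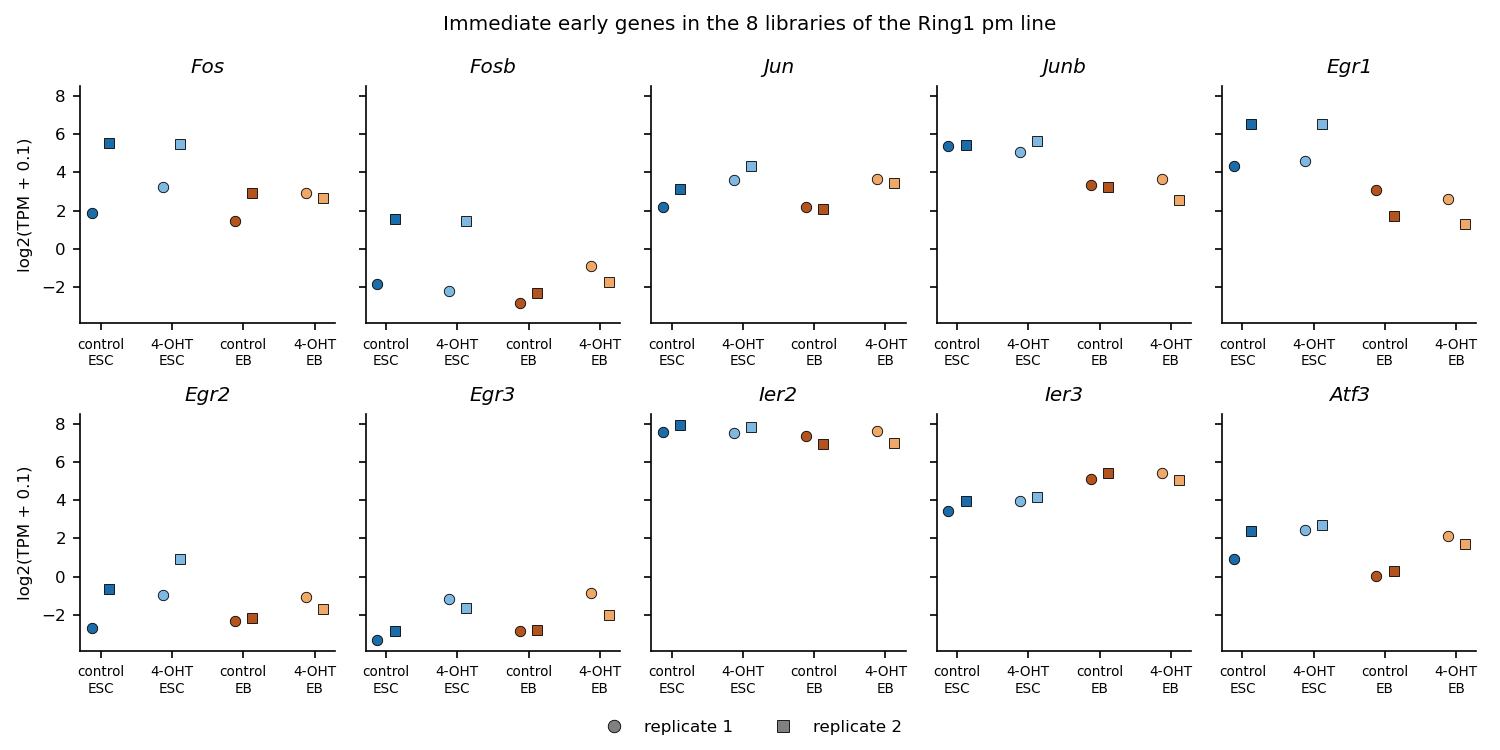
Level of each immediate early gene as log2(TPM + 0.1) in the 8 libraries of the *Ring1* pm line, with replicate 1 as circles and replicate 2 as squares. *Fos*, *Fosb* and *Egr1* are higher in replicate 2 of both ESC groups, while *Junb* replicates lie close together in control ESCs (41.2 and 43.4 TPM) and control EBs but not in treated EBs (12.5 and 5.78 TPM).

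Given this spread, *Fos* was not distinguishable between control EBs (2.69 and 7.55 TPM) and control ESCs (log2 -1.51, standard error 1.20, adjusted *p* = 0.527), and its difference changed sign without control ESC replicate 2. *Egr1* was at 8.21 and 3.15 TPM in control EBs, below both ESC libraries (log2 -3.04, standard error 0.92, adjusted *p* = 0.119), and *Atf3* (log2 -1.48, adjusted *p* = 0.157) and *Ier2* (log2 -0.62, adjusted *p* = 0.233) did not pass the test. In treated EBs against treated ESCs none of the 10 genes passed (limma, lowest adjusted *p* = 0.104, 3 genes at an unadjusted *p* under 0.05), beside 0.0493% of all genes higher and 0.0838% lower. *Junb* (log2 -2.24, adjusted *p* = 0.104), *Egr1* (log2 -3.62, adjusted *p* = 0.261) and *Ier3* (log2 1.19, adjusted *p* = 0.16) had the same signs as in the controls.

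After 4-OHT, none of the 10 genes passed the test in ESCs of this line (limma, lowest adjusted *p* = 0.118, 2 genes at an unadjusted *p* under 0.05), beside 2.34% of all genes higher and 0.197% lower. None passed in EBs either (limma, lowest adjusted *p* = 0.0767, 3 genes at an unadjusted *p* under 0.05), beside 3.76% higher and 0.764% lower. The log2 differences of all genes had a median of 0.119 in ESCs and 0.1035 in EBs, which became 0 with median-of-ratios scaling. Those of the 10 genes had a median of 0.48 in ESCs and 0.70 in EBs, or 0.34 and 0.60 with that scaling.

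*Jun* was at 4.47 and 8.55 TPM in control ESCs and at 12.1 and 19.8 TPM in treated ESCs (log2 1.31, standard error 0.37, adjusted *p* = 0.118), and at 4.48 and 4.08 TPM in control EBs and 12.4 and 10.7 TPM in treated EBs (log2 1.41, standard error 0.37, adjusted *p* = 0.0767). *Atf3* was at 1.76 and 5.15 TPM in control ESCs and 5.32 and 6.31 TPM in treated ESCs (log2 0.92, adjusted *p* = 0.435), and at 0.922 and 1.13 TPM in control EBs and 4.23 and 3.15 TPM in treated EBs (log2 1.74, adjusted *p* = 0.101). *Egr3*, at 0.4525 TPM or less in all 8 libraries, had a log2 difference of 1.66 in ESCs (adjusted *p* = 0.127) and 1.39 in EBs (adjusted *p* = 0.155). None of these 3 genes, which were named after their values were seen, passed the test in either stage. The difference between stages in the effect of 4-OHT passed for none of the 10 (limma, lowest adjusted *p* = 1, 0 genes at an unadjusted *p* under 0.05), beside 0.00986% of all genes.

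The same lists were counted in this line, beside the 2% of all genes that fell and the 2.73% that rose in control EBs against control ESCs. In control EBs against control ESCs, *Socs3* (log2 -4.00) and *Bcl3* (log2 -3.09) were among 4 LIF-STAT3 genes of 10 that fell. *Cyr61* (log2 -2.24) and *Edn1* (log2 -2.89) were the 2 of 32 other immediate early genes that fell, and 2 rose, among them *Ier5* (log2 1.59). Of the ERK feedback genes *Dusp4* (log2 2.86) and *Spry1* (log2 1.24) rose and *Etv4* fell by 1.08. After 4-OHT, *Hspa1a* and *Hspa1b* rose in ESCs (log2 1.65 each) and in EBs (log2 1.92 and 2.02), and *Cyr61* rose in both (log2 1.81 and 2.30). The MEF feeder sum of this line was higher in treated than in control libraries, at 81.7 to 101 TPM against 34.8 to 50.6 TPM. No other marker contributed as much to it as *Thy1*, which ranged between 21.6 and 30.95 TPM without 4-OHT and between 38.5 and 46.1 TPM after it. *Col1a1* ranged from 3.01 to 6.98 TPM without 4-OHT and from 9.35 to 16.3 TPM after it. The log2 differences of the 12 markers between treated and control cells had a median of 0.93 in ESCs and 1.21 in EBs. Those of all genes had 0.119 and 0.1035. None of the 12 passed the test in ESCs, beside 2.34% of all genes higher. In EBs 4 rose, beside 3.76% of all genes, and none fell. *Thy1* was also higher in control EBs than in control ESCs of the *Pcgf1* line, so the sum need not measure feeder RNA alone. The part of feeder RNA in the values after 4-OHT was not tested.

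Across all 59 libraries, *Fos* was above 100 TPM in 13, the 9 ESC libraries of the *Pcgf1* line and 4 libraries of the *Ring1A/B* line, where it ran from 364 to 906 TPM. In the other 46 libraries it ran from 0.542 to 47.2 TPM. *Egr1* was at 135.5 TPM or more in the same 13 and at 92.7 TPM or less in the others. *Klf4* was at 655 TPM or more in the 13 and at 334 TPM or less in the others. The sum of all 8 naive ESC markers did not split the libraries in this way. It was at 2390 TPM in *Ring1* pm control ESC replicate 1, with 3.56 TPM of *Fos*. In *Pcgf1*-KO ESC replicate 1 it was at 2234 TPM, with 564.5 TPM of *Fos*. The MEF feeder sum was at 183 TPM or more in the 13 and at 178 TPM or less in the others. The feeder sums of both sides nearly met, as *Pcgf6* replicate 2 labelled mutant EB held 178 TPM with 6.04 TPM of *Fos*, and *Ring1A/B* replicate 2 labelled control ESC held 183 TPM with 692.5 TPM of *Fos*. The *Ring1A/B* libraries belong to the library series of *Pcgf1* line replicates 4 and 5. The *Ring1* pm, *Pcgf2/4*, *Pcgf3/5* and *Pcgf6* lines belong to other series, so for them line and series cannot be told apart. The part of the stage, of the library series or of feeder RNA in the *Fos* level was not tested.

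In the *Ring1A/B* line the high libraries did not follow the stage of the label. *Fos* was at 659.5 and 692.5 TPM where the label reads control ESC and at 364 and 367 TPM where it reads control EB. The libraries labelled mutant ESC held 5.54 and 5.32 TPM and those labelled mutant EB 6.2 and 6.23 TPM. The files of the libraries labelled control EB are named as mutant ESC, and their *Klf4* (665.5 and 708.5 TPM) lay within the range of *Pcgf1* line ESCs. *Fgf5*, an epiblast marker, was at 0.540 and 0.791 TPM there, and at 0.816 and 0.465 TPM in the libraries of this line labelled control ESC. The highest *Pcgf1* line ESC library held 0.438 TPM of *Fgf5* and the lowest *Pcgf1* line EB library 8.46 TPM. The files of the libraries labelled mutant ESC are named as control EB, and held 9.90 and 7.38 TPM of *Klf4* and 28.0 and 27.5 TPM of *Fgf5*. *Egr1* (314 and 323 TPM, then 135.5 and 140.4 TPM) and *Fosb* (165 and 176 TPM, then 82.0 and 88.1 TPM) were high in the same 4 libraries, those labelled control ESC and control EB, while *Ier3* was highest, at 106 and 109 TPM, in those labelled mutant ESC.

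The 24 libraries of the *Pcgf2/4*, *Pcgf3/5* and *Pcgf6* lines, whatever their label, held 2.35 to 10.5 TPM of *Fos* (median 5.05), 0 to 2.10 TPM of *Fosb* (median 0.184) and 0.543 to 40.1 TPM of *Egr1* (median 9.06). *Klf4* ran from 3.25 to 200.2 TPM over the same libraries, and *Fos* was at 10.5 TPM or less in all of them. None reached the 655 TPM of *Klf4* that was the lowest among the libraries with *Fos* above 100 TPM. The library with the highest *Klf4*, *Pcgf6* replicate 1 labelled mutant ESC, held 7.88 TPM of *Fos*. *Ier2* was abundant in all of them, at 97.7 to 485 TPM, with 322.5 to 485 TPM in the *Pcgf6* line and 97.7 to 144 TPM in the *Pcgf3/5* line. *Atf3* was at 0.417 to 0.885 TPM in the *Pcgf3/5* line and at 3.08 to 19.1 TPM in the *Pcgf6* line. *Egr2* was listed at 0 in 5 of 8 *Pcgf3/5* libraries.

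**Figure D4:**
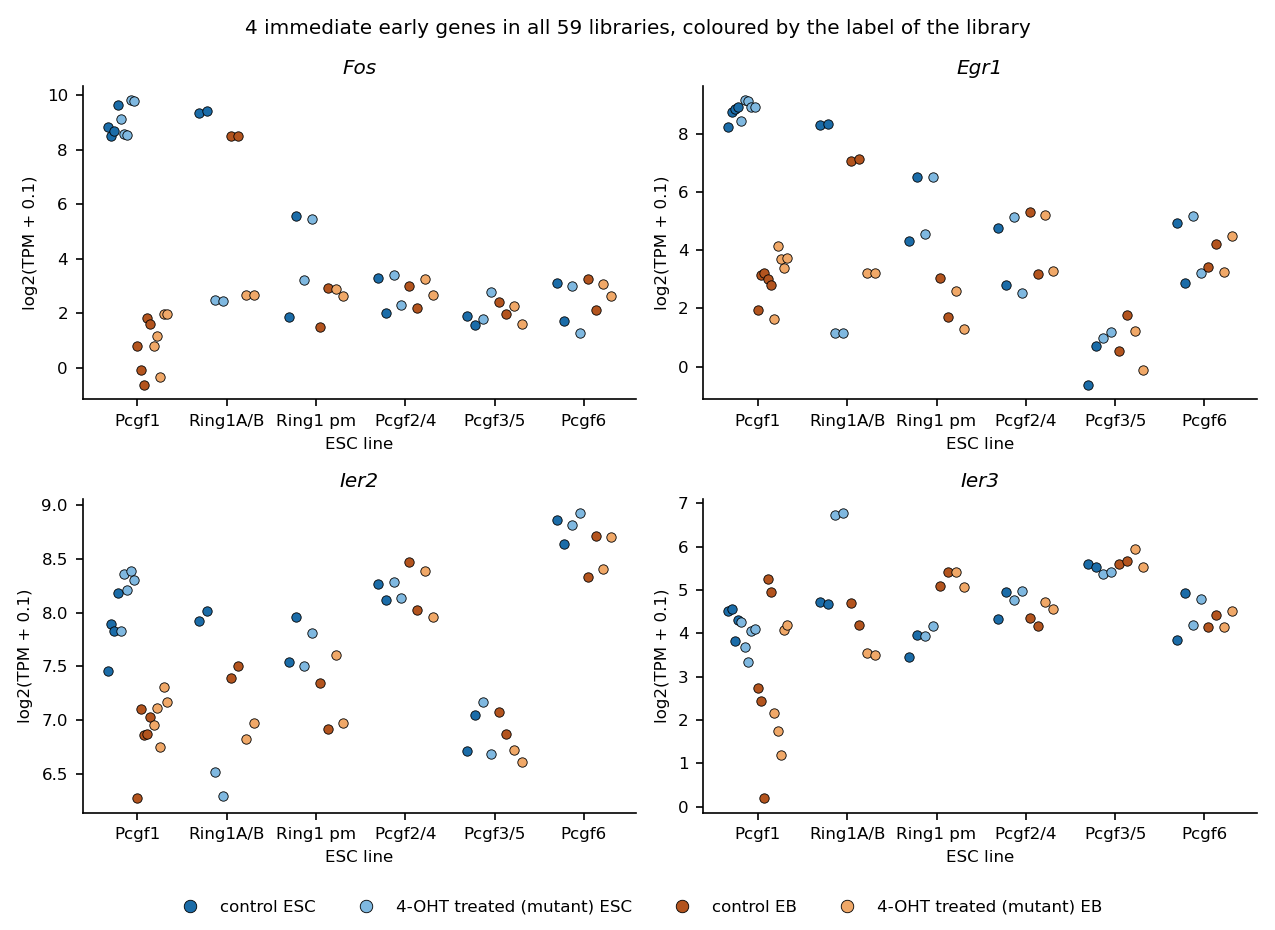
Levels of *Fos*, *Egr1*, *Ier2* and *Ier3* as log2(TPM + 0.1) in all 59 libraries by ESC line, coloured by the label of each library. *Fos* and *Egr1* are high in *Pcgf1* ESCs and in *Ring1A/B* libraries labelled control, and *Ier2* is at 77.3 TPM or more in every library.

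**Figure D5:**
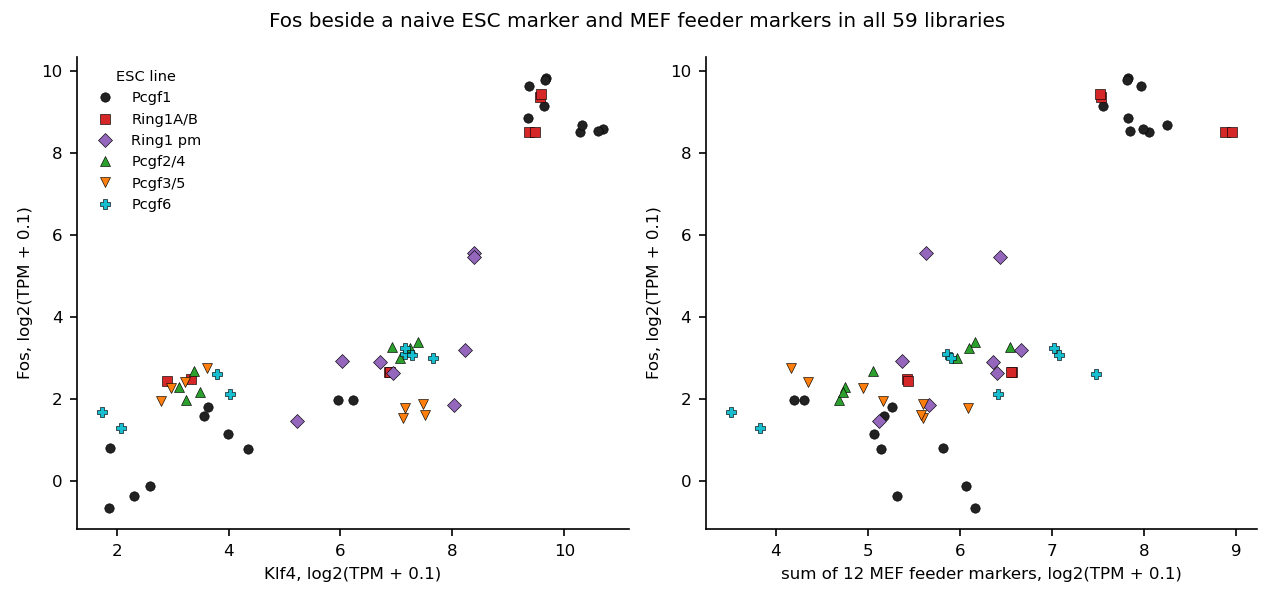
*Fos* against *Klf4* (left) and against the sum of 12 MEF feeder markers (right), each as log2(TPM + 0.1), for all 59 libraries coloured by ESC line. The 13 libraries with *Fos* above 100 TPM have *Klf4* of 655 TPM or more and feeder sums of 183 TPM or more. The summed naive ESC markers, not drawn, do not separate these libraries from the others.

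The spread of the members within a group was compared with that of all genes of at least 1 TPM. In control ESCs of the *Pcgf1* line the median SD of the 10 members was 0.42 (log2, n = 4) beside 0.39 for all genes, and in *Pcgf1*-KO ESCs it was 0.39 (n = 5) beside 0.37. For the 7 members at this level in EBs it was 0.69 beside 0.41 in controls and 0.97 beside 0.45 in *Pcgf1*-KO EBs, with *Ier3* the widest in both. In the *Ring1* pm line *Fos* (2.61) was the widest in control ESCs and *Fosb* (2.58) in treated ESCs, where the median genes had 0.19 and 0.13 (n = 2 each). In the *Ring1A/B* line, whose libraries belong to 1 series, the members' median SD was 0.041 to 0.091 over the 4 labelled groups.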

How the data were processed

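Poly(A) RNA of 59 mouse libraries was sequenced, and the authors deposited 1 table per library of TPM per gene symbol (mm9, STAR 2.5.2b, in the submitters' processing notes). The notes also name DESeq2, for fold changes that were not used here. The tables hold no counts, so the depth behind a value is unknown and no interval was given, and 6039 to 9139 genes are listed at 0. From these values log2(TPM + 0.1) was computed and fitted with limma 3.58.1 (R 4.3.3, variance trend, 1 fit per line over its 4 labelled groups) for genes above 0 TPM in at least 1 library of the line, with Benjamini-Hochberg adjustment and a threshold of 0.05. Tables and plots were made with Python 3.11.15.

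Groups and replicate numbers came from the labels. Same-numbered libraries of the *Pcgf1* line deviated together from their group means (r of 0.317 to 0.653 in 27 of 27 pairs), so values with the replicate number as a block are given where they change a call. The members and the lists were chosen with earlier results of these data known. Where not all members have a log2 difference printed, those printed were chosen after their values were seen. The genes named from a list are among the 3 highest and 3 lowest by log2 difference in that comparison averaging 1 TPM or more in 1 of its groups, and those named for likeness are among the 5 of highest r among genes averaging 5 TPM or more. Alternatives were another pseudocount, filter, scaling, fit or set of replicates, and the fit was tested on simulated data. Upstream sequences were read from the NCBI m37 (mm9) genome at Gencode M1 starts. Lines whose file names and labels differ were not tested.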

Additional observations from a re-analysis of the deposited data

Results flagged for a closer look

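Of 40 groups of 4 or 5 libraries of the *Pcgf1* line (10 genes in 4 groups), 2 held a library far from the others by Dixon's test, which chance gives in about 1 of 20 groups. *Junb* was at 88.1 TPM in *Pcgf1*-KO ESC replicate 1 and at 189 to 226 TPM in the other 4. *Ier2* was at 77.3 TPM in control EB replicate 1 and at 117 to 138 TPM in the other 4. In both cases it was replicate 1, the only one of its library series.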

How the results depend on the processing

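The log2 differences of 35 comparisons of single members gave 656 alternative values, of which 629 kept their direction and side of the threshold, 15 lost the call, 11 gained one and 1 reversed. The single-library omissions and the library series means were chosen after seeing the data, and a whole replicate number could not be left out of the *Ring1* pm fit, which then has no residual degrees of freedom. For *Pcgf1*-KO against control ESCs, 0 members passed the test, and 1 did with the replicate block and 2 with the library series as a block. For *Pcgf1*-KO against control EBs, 1 passed, 3 with the replicate block, 3 with the library series as a block, 0 with only the groups compared, 0 with 1 mean per library series, 0 with those means and the series as a block, and 0 to 2 when replicates were left out. For *Ring1* pm control EBs against ESCs, 2 passed, 1 with quantile normalization and 0 with any library of these groups left out. With genes of a mean of at least 1 TPM, 1 passed for treated EBs against ESCs and 1 for treated against control EBs of that line, where none did otherwise, and the latter was also 1 with the replicate block (*Jun*, adjusted *p* = 0.0445 beside 0.0767). *Fos* in *Ring1* pm control EBs against ESCs reversed to 0.33 without control ESC replicate 2 (range -3.36 to 0.33). The median for *Pcgf1* control EBs against ESCs moved from -3.84 to -3.28 with a pseudocount of 1, and ran from -4.03 to -3.69 without single replicates, and 9 members passed in *Pcgf1*-KO EBs against ESCs under every alternative run but the filter on a mean of 1 TPM, which drops *Egr3* and left 8. The replicate block changed no other call of a member. In the *Ring1* pm line the numbers gave r of 0.106 to 0.381 over 12 pairs, with only 2 pairs per comparison. With 2 libraries per group, both pairs of a comparison have the same r by construction, so the 12 are not separate values.

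Over all genes, the replicate block moved the calls from 402 to 2143 (*Pcgf1*-KO against control EBs), 132 to 1094 (ESCs) and 3770 to 7573 (*Pcgf1*-KO EBs against ESCs). Series means gave 4, 0 and 1567. In the *Ring1* pm line the block moved 960 to 2018 (control EBs against ESCs), 515 to 1326 (treated against control ESCs) and 918 to 2056 (EBs). The split into higher and lower genes there was 475 and 40 in ESCs, or 437 and 75 with median-of-ratios scaling, and 763 and 155 in EBs, or 634 and 295. Depth is unknown, which limits the genes near 0, *Egr2*, *Egr3* and *Fosb* in EBs. In simulated data for *Pcgf1*-KO against control EBs over 20594 genes, 43% of changes of 1 and 81% of changes of 2 (log2) were called, and for *Ring1* pm over 20279 genes 27% and 70%.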
